A study of Mus musculus with 8 samples.

Results

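The canonical histone genes are the clustered genes for the linker histone H1 and the core histones H2A, H2B, H3 and H4 that supply new chromatin during DNA replication. They were taken from the count table by gene symbol alone (*H1f1* to *H1f6* and every numbered *H2ac*, *H2bc*, *H3c* and *H4c* gene), which gave 65 genes of 55247 rows. These were 6 genes for H1, 18 for H2A, 17 for H2B, 12 for H3 and 12 for H4. In GRCm39, 55 of them lay on chromosome 13 between 21899933 and 24118834, and the other 10 lay on chromosome 3 between 96127181 and 96177448. All 65 identifiers were found in GENCODE vM39, which types 64 as protein coding and *H2ac14* as a pseudogene.

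Each library came from the back skin of 1 wild-type female of 8 weeks (C57BL/6J in the labels, C57BL/6JJmsSlc in the methods) that carried a tumor of EL4, a mouse T-cell lymphoma line injected under the skin. At Day 14 after injection, 4 mice were given the vehicle (DMSO in corn oil) and 4 were given 0.1 mg of bexarotene, which binds retinoid X receptors, by the intraperitoneal route. The tumor was collected together with skin at Day 16, so tumor cells, host cells that had entered the tumor and skin cells are mixed in every library. In such bulk tissue, fewer cells of a type and less RNA per cell cannot be told apart.

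Canonical histone mRNAs are unusual among mRNAs. As a rule they lack introns and a poly(A) tail, and end instead at a conserved stem-loop that is bound by the stem-loop binding protein. They accumulate in S phase and are degraded when DNA synthesis stops. Some H2B members span more bases than their deposited length, as *H2bc6* does (37455 against 4446), so their annotation holds introns. H2A pairs with H2B and H3 pairs with H4 in the nucleosome core, while H1 binds the linker DNA outside it. Ribosomal RNA depletion, the method used here, also retains mRNAs that have no poly(A) tail.

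The stem-loop is shown because it marks the members as one kind of transcript and because its letters differ between classes. Searched within 200 bases after the coding end on the transcribed strand of GRCm39, it was found in 60 of 65 members, 24 to 61 bases after the coding end (median, 33). The search found no match for *H2ac14*, *H2ac22*, *H2bc21*, *H3c8* and *H4c1*. Of 6 versions, 1 was carried by 39 members, none of them an H4 gene. The H4 genes had 3 versions of their own in 11 members. Capitals mark the 16 bases of the stem-loop in 4 members, and the coordinates are those of the capitals.
*H3c13* (chr3:96176451-96176466, plus strand): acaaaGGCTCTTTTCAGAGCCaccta
*H4c12* (chr13:21934320-21934335, minus strand): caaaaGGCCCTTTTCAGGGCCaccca
*H4c9* (chr13:22225136-22225151, minus strand): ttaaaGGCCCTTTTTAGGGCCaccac
*H4c11* (chr13:21919607-21919622, plus strand): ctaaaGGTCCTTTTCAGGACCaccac

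Upstream of the start, the classes also differed in sequence. RefSeq promoters (build GRCm38.p6) were found for 57 members, and 250 bases before the start were searched on both strands for 3 strings that do not contain each other. CCAAT was present in 5 of 5 H1, 17 of 17 H2A, 14 of 14 H2B, 8 of 10 H3 and 3 of 11 H4 promoters, against 33.8% of 32851 promoters of the same length. The octamer ATTTGCAT was present in 6 of 17 H2A and 6 of 14 H2B promoters and in 0 of the other 26, against 1.6% of all promoters. Many H2A and H2B genes lie in divergent pairs (described below) whose windows overlap, so 1 site can be counted in both classes. That was so for the octamers of *H2ac1* and *H2bc1*, *H2ac8* and *H2bc8*, and *H2ac12* and *H2bc12*. The H2A and H2B promoters are therefore not independent of each other. TATAAA was present in 27 of the 57, against 12.4%. The promoters of 1 H2B and 1 H4 gene, described with their values below, are printed with each match in capitals on whichever strand it lies.
*H2bc3* (GRCm38.p6, chr13:23746484-23746733, plus strand): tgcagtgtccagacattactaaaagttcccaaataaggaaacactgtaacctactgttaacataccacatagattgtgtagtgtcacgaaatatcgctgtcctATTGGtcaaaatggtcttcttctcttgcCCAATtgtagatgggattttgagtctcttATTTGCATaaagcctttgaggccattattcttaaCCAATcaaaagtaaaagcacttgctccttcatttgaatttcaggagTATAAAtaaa
*H4c12* (GRCm38.p6, chr13:21750554-21750803, minus strand): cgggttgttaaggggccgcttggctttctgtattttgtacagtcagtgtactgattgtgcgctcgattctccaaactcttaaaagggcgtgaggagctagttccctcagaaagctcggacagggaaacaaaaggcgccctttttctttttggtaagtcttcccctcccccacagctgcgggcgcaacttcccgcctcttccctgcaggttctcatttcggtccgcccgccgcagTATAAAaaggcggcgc

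The libraries held from 8518428 to 24020342 counts, of which the ribosomal RNA gene *Rn18s* took 50.8% to 59.8%. The 65 histone genes had between 6064 and 97832 of them, which was 1.53% to 2.59% of the protein-coding counts. Bexarotene 1 and Bexarotene 2 were the shallowest libraries and stood apart from the other 6 in measures that use no histone gene. Protein-coding genes held 6.35% and 4.02% of their counts, against 9.55% to 19.0% elsewhere. The mitochondrial gene *mt-Nd6*, which is transcribed from the opposite strand to most mitochondrial genes, held 23.2% and 33.1% of the mitochondrial protein-coding counts, against 1.09% to 1.53%. Levels are given as CPM, counts per 1000000 of a library size that was adjusted by TMM, the trimmed mean of log ratios between libraries. The 6 fibroblast markers summed to 879 and 1680 CPM in these 2 libraries, to 262 to 782 in the vehicle mice and to 377 and 493 in the other 2 bexarotene mice. That sum rested on the collagen genes *Col1a1*, *Col3a1* and *Col1a2*, at 537, 166 and 161 CPM in Bexarotene 1 and 1180, 240 and 247 CPM in Bexarotene 2. All 6 markers passed the filter on low counts. With bexarotene, 3 had a positive and 3 a negative log2 fold change (median, 0.08). Bexarotene 1 and 2 lay above the other 6 libraries in 3 markers, beside 14.8% of all genes tested. They lay below in 2, beside 17.5%. Of the 13 T-lineage markers, 11 passed the filter, and their sum lay between 172 and 241 CPM with vehicle and between 211 and 232 with bexarotene (median log2 fold change, 0.19). T-lineage markers were thus detected in every mouse, but EL4 cells and host T cells cannot be told apart by them. The 6 keratinocyte markers summed to 1.37 CPM in Vehicle 4, where *Krt1* and *Krt10* were at 0, and to 39.7 to 369 elsewhere. The 8 macrophage markers, all of which passed the filter, summed to 21.4 to 77.4 CPM with vehicle and 22.1 to 36.8 with bexarotene, and all 8 log2 fold changes were negative (median −0.43, and −0.52 without Bexarotene 1 and 2). The macrophage marker *Mrc1* had a log2 fold change of −0.72 (unadjusted p = 0.0266 and adjusted p = 0.976 by edgeR's quasi-likelihood test). The T-lineage marker *Cd247*, the neutrophil marker *S100a8* and the skeletal muscle marker *Myh4* had −0.90, −1.34 and 2.42. By the same test their unadjusted p-values were 0.0287, 0.0371 and 0.0244, with an adjusted p of 0.976 for each. The medians were −0.83 over 4 neutrophil markers and 0.59 over 5 skeletal muscle markers, and −0.61 and 1.23 without Bexarotene 1 and 2. The neutrophil markers were near the floor, with sums of 3.13 to 5.69 CPM with vehicle and 0 to 3.98 with bexarotene. No B-cell marker of 5 passed the filter. The part of these differences in the histone values was not tested, and the main results are given with and without Bexarotene 1 and Bexarotene 2.

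Copies of the same coding sequence limit what can be said of single genes. The H1 genes shared few stretches of sequence (median, 11.0% of 50-base stretches of the coding sequence found in another member), whereas the medians were 85% in H2A, 80.2% in H2B, 79.3% in H3 and 71.7% in H4. *H2bc23* and *H2bc24* had equal coding sequences, 5827 and 5781 counts in all, and differed by at most 35 counts in any library. *H2ac23* and *H2ac24* differed by at most 30, and *H2ac18* and *H2ac19* by at most 81. Over 8 libraries these 3 pairs differed by less than sampling noise (chi-square of 0.64, 0.741 and 1.57 with 8 degrees of freedom), among 361 pairs of the same class that were compared, so each pair is best read as 1 measurement. *H4c17* and *H4c18* also had equal coding sequences, but their counts differed (chi-square, 171). The methods state that reads were uniquely aligned, but not how reads that fit several genes entered the counts. In addition, 36 members overlapped a gene on the opposite strand and 17 overlapped a gene on their own strand. The strand setting was not given either, so reads of the overlapping genes cannot be told apart from those of these members.

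Levels were compared between genes per length, as TPM (counts divided by gene length and scaled to sum to 1000000 over all rows), averaged over the 8 libraries. The H3 genes *H3c13*, *H3c11* and *H3c10* stood at 160, 159 and 158 TPM, and the highest value was that of *H2ac19*, at 190 TPM. Next in H2A came *H2ac15* (97.2 TPM) and *H2ac23* (76.4 TPM). In H4 the leading genes were *H4c12* (121 TPM), *H4c8* (65.3 TPM) and *H4c18* (64.1 TPM). In H2B they were *H2bc15* (60.9 TPM), *H2bc11* (30.8 TPM) and *H2bc13* (27.2 TPM), and in H1 *H1f5* (54.5 TPM), *H1f1* (49.0 TPM) and *H1f4* (26.0 TPM). These levels depend on the deposited gene lengths. *H2ac18*, a copy of *H2ac19* with nearly equal counts, had 33.5 TPM because its deposited length is longer.

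At the low end, *H3c8* and *H3c14* had 0 counts in every library, which allows up to 3 counts in each, or 0.0596 CPM in Vehicle 1 to 1.27 CPM in Bexarotene 2. These limits cover only reads that were assigned to these genes. Of the 50-base stretches of their coding sequences, 72.4% and 72.7% also occur in another member. How reads that fit several genes were counted is not stated, so the limits do not bound the mRNA itself. *H2ac1* had 2 counts, both in Vehicle 1. *H1f6*, a testis histone, had 21 counts and *H2bc21* had 44. These 5 genes were removed by the filter on low counts. In a fit without the filter, *H1f6*, *H2ac1* and *H2bc21* had unadjusted p-values of 0.137, 0.256 and 0.894 by edgeR's quasi-likelihood test. The other 60 members were tested among 11616 genes.

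Within the histone counts, the classes kept steady shares in 6 of the 8 libraries and other shares in the remaining 2. H4 genes made up 18.2%, 17.3%, 16.1% and 15.4% of the histone counts in vehicle mice 1 to 4, and 34.1%, 37.0%, 16.8% and 16.5% in bexarotene mice 1 to 4. H2B genes made up 12%, 11.0%, 10.6% and 12.5% with vehicle, and 4.73%, 4.53%, 12% and 11.6% with bexarotene. Bexarotene 1 and 2 thus lay outside the range of the vehicle mice in both classes, while Bexarotene 3 and 4 lay in or next to it. H2A was also lower in the same pair, at 18.8% and 18.5% against 25.8% to 29.3%. The shares add up to the whole, so a higher share of H4 lowers those of the other classes. In CPM, the H2A genes summed to 369 and 475 in Bexarotene 1 and 2 and to 443 to 799 in the other 6 libraries. H3 (31.6% to 35.3%) and H1 (8.29% to 11.2%) kept narrow ranges over all 8 libraries. Genes for H4 thereby had 7.21 and 8.17 counts for each H2B count in Bexarotene 1 and 2, against 1.23 to 1.58 in the other 6.

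**Figure D1:**
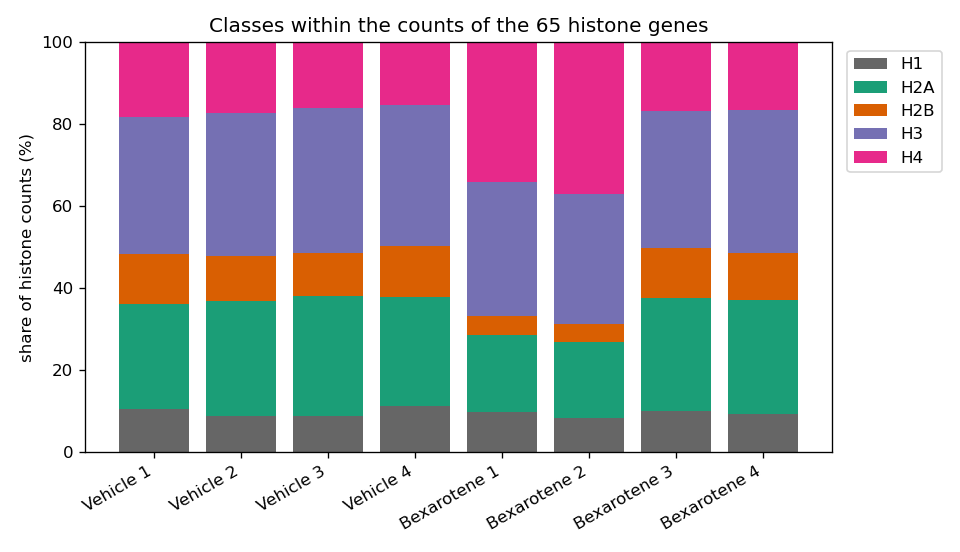
Share of each histone class (%) in the counts of the 65 canonical histone genes, 1 bar for each library. H4 takes 34.1% and 37.0% in Bexarotene 1 and Bexarotene 2 and 15.4% to 18.2% in the other 6 libraries. H2B takes 4.73% and 4.53% against 10.6% to 12.5%. The shares in a bar add up to the whole, so a higher share of H4 lowers the others.

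In the comparison of the 4 bexarotene mice with the 4 vehicle mice, no histone gene passed the adjusted threshold. By edgeR's quasi-likelihood test with Benjamini-Hochberg adjustment, 0 of 60 members were called, as were 0 of all 11616 genes (0% of genes, smallest adjusted p = 0.976). DESeq2 and limma-voom with sample weights also called 0. At an unadjusted p under 0.05, DESeq2 gave 8 members and limma-voom gave 0, of 451 and 399 genes in all. By edgeR, 7 members were higher with bexarotene at that threshold, where 2.38% of all genes tested were, and 1 member was lower, where 1.3% of all genes were. In either direction this was 8 of 60 members, beside 3.68% of all genes tested. All 7 higher members encode H4. The median log2 fold change of the 60 members was −0.01, and that of all genes tested was −0.03. By class the medians were −0.05 in H1, −0.01 in H2A, −0.38 in H2B, 0.09 in H3 and 0.95 in H4, although the H4 median was −0.21 when counts were scaled by library total alone. That scaling moved the median of all genes to −0.66, and relative to it H4 stood at 0.45 and H2B at −0.19. No member had all 4 bexarotene mice above all 4 vehicle mice or all below, where 1.41% and 1.42% of all genes did.

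These counts rested on Bexarotene 1 and Bexarotene 2. Without both, 0 of 60 members had an unadjusted p under 0.05 by edgeR, where 1.5% of 13333 genes did, and the members' log2 fold changes lay between −0.43 and 0.30. The H4 median was then 0.00 and the H2B median 0.07. Leaving out either alone gave 0 members as well, beside 203 of 12562 genes without Bexarotene 1 and 259 of 12581 without Bexarotene 2. The count of 8 was also moved by other mice. It was 5 without Vehicle 1, 2 without Vehicle 2, 5 without Vehicle 3 and 1 without Vehicle 4. It was 11 without Bexarotene 3 and 21 without Bexarotene 4. All genes at that threshold, 428 in the main fit, moved as well. They numbered 304, 316, 331 and 375 without Vehicle 1 to 4. Without Bexarotene 3 and without Bexarotene 4 they numbered 914 of 11648 and 887 of 12454. Counting each pair of copies once left the member count at 8, as it had to, since none of these 8 genes belongs to such a pair. The H4 genes that share a long run of bases were still counted singly.

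**Figure D2:**
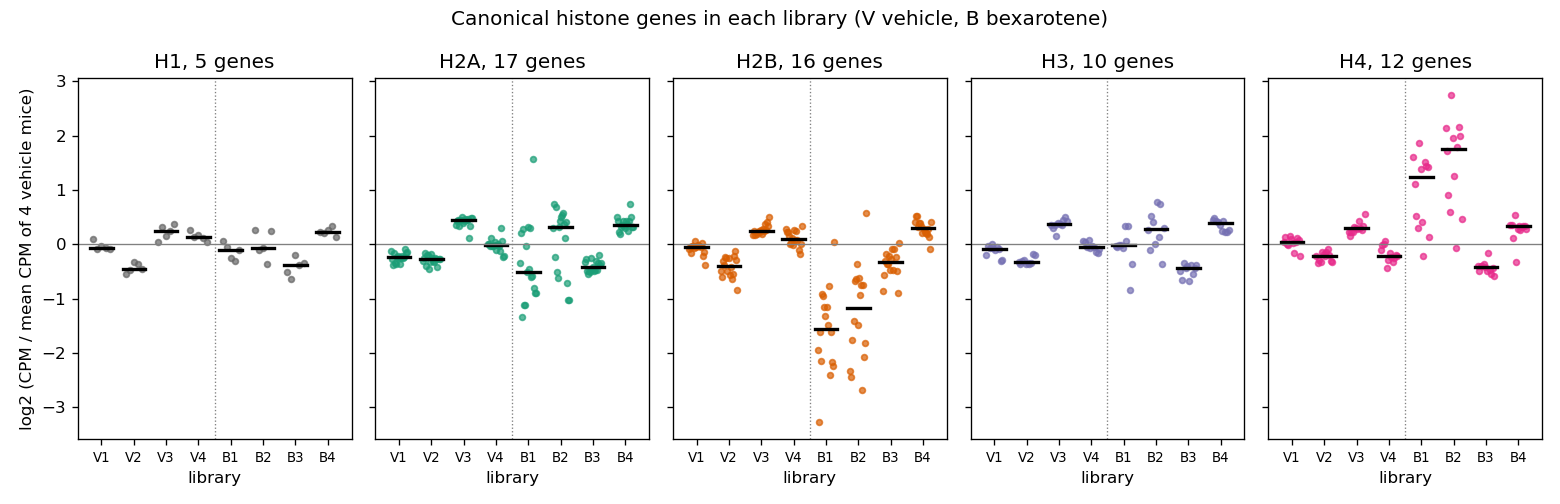
CPM of each of the 60 tested histone genes in each library over its mean in the 4 vehicle mice, on a log2 scale, with 1 point per gene, black bars for the class median, V for vehicle and B for bexarotene. Points of H4 lie high and those of H2B low in Bexarotene 1 and Bexarotene 2, whereas H1 and H3 show no such shift of the class median, and when counts were scaled by library total alone the H4 median fold change turns to −0.21.

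The H4 genes were the class with the widest shift. Their median level over 12 genes was 28.8, 23.3, 34.4 and 24.7 CPM in Vehicle 1 to 4 and 60.3, 79.2, 20.2 and 34.6 CPM in Bexarotene 1 to 4. The group means of these medians were 27.8 ± 4.97 and 48.6 ± 26.3 CPM (SD, n = 4 each), and the groups overlapped. Both Bexarotene 1 and 2 exceeded the other 6 libraries in 9 of the 12 H4 genes, where 14.8% of all genes tested did, and in 0 of the other 48 members.

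*H4c12*, the H4 gene with the highest level per length, had 43.8, 31.4, 44.1 and 39.5 CPM in Vehicle 1 to 4 and 85.3, 131, 28.4 and 50.7 CPM in Bexarotene 1 to 4. *H4c8* had 34.4, 28.5, 40.0 and 26.3 CPM with vehicle and 84.7, 125, 24.2 and 39.1 CPM with bexarotene. In both genes Bexarotene 1 and 2 lay above every vehicle mouse and Bexarotene 3 lay below every vehicle mouse. Their log2 fold changes were 0.88 (SE 0.38) and 1.05 (SE 0.42), with unadjusted p-values of 0.0419 and 0.0298 and an adjusted p of 0.976 for each by edgeR. Without these 2 shallow libraries, the values were 0.01 and −0.02.

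The largest shift among genes of moderate level was in *H4c11*, with 26.4, 22.0, 29.9 and 23.8 CPM with vehicle and 77.8, 113, 19.4 and 32.6 CPM with bexarotene. The values of *H4c2* were 25.3, 20.2, 27.7 and 19.5 CPM with vehicle and 63.4, 104, 15.8 and 29.4 CPM with bexarotene. In both genes Bexarotene 1 and 2 were the highest of the 8 libraries and Bexarotene 3 was the lowest. Their log2 fold changes were 1.22 (SE 0.45) and 1.16 (SE 0.46), with unadjusted p-values of 0.0187 and 0.0281 and an adjusted p of 0.976 for each by edgeR, and 0.04 and −0.02 without Bexarotene 1 and 2.

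*H4c1* had 29.6, 22.5, 35.4 and 24.3 CPM with vehicle and 75.4, 111, 20.7 and 35.2 CPM with bexarotene. *H4c3* had 28.1, 25.5, 33.4 and 21.7 CPM with vehicle and 77.8, 94.6, 19.6 and 34.1 CPM with bexarotene. Again the first pair of bexarotene mice was high and the other pair lay in or next to the vehicle range. The log2 fold changes were 1.09 (SE 0.43) and 1.03 (SE 0.41), with unadjusted p-values of 0.0275 and 0.0287 and an adjusted p of 0.976 for each by edgeR, and 0.01 and 0.00 without Bexarotene 1 and 2. *H4c9* had the lowest level per length of the class, with 4.61, 3.73, 5.19 and 3.05 CPM with vehicle and 15, 27.9, 3.20 and 3.30 CPM with bexarotene. It had the largest log2 fold change of all members, 1.37 (SE 0.61, unadjusted p = 0.0455 and adjusted p = 0.976 by edgeR), and −0.34 without Bexarotene 1 and 2.

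*H4c18*, in contrast, had 30.3, 24.2, 35.6 and 31.9 CPM with vehicle and 37.5, 46.0, 23.1 and 44.5 CPM with bexarotene, so that Bexarotene 1 lay below Bexarotene 4, and both lay above every vehicle mouse. Its log2 fold change was 0.30 (SE 0.23, unadjusted p = 0.221 by edgeR). The other 4 H4 genes had log2 fold changes of −0.03 (*H4c4*), 0.11 (*H4c14*), 0.34 (*H4c17*) and 0.46 (*H4c6*). By the two-sided exact permutation test over 70 assignments of the mice, whose smallest possible p is 0.0286, the 7 H4 genes named with an unadjusted p under 0.05 had p-values from 0.229 to 0.371.

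**Figure D3:**
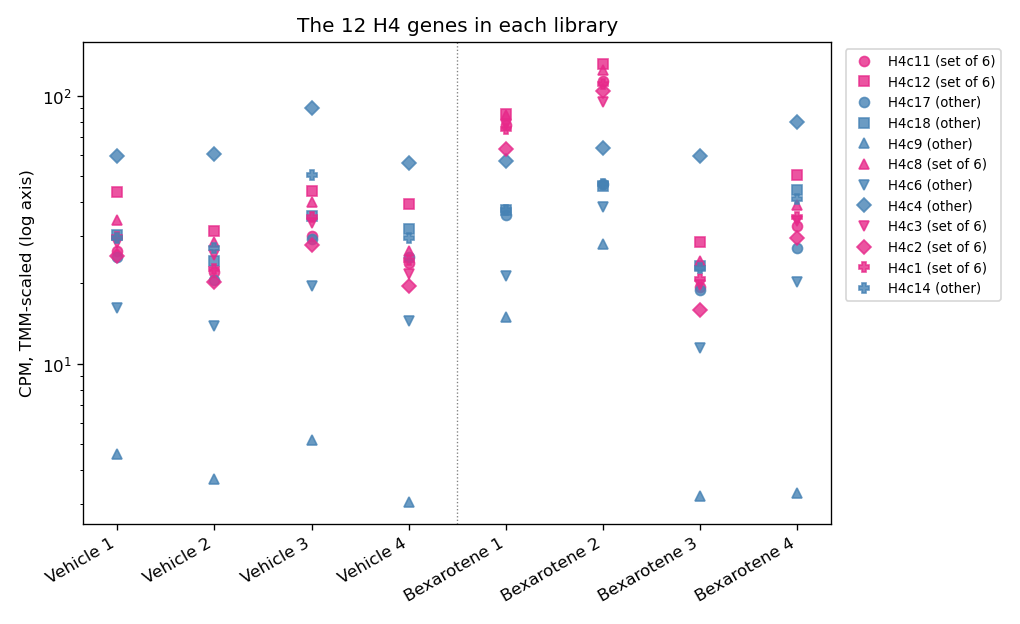
TMM-scaled CPM (log axis) of the 12 H4 genes in each library, with 6 genes in pink and the other 6 in blue. The pink genes share G at coding position 126 and a run of 197 bases. They were grouped after their values were seen, by their Bexarotene 1 values and over several cuts. Their high values in Bexarotene 1 therefore follow from the choice. The pink genes lie between 63.4 and 131 CPM in Bexarotene 1 and Bexarotene 2 and between 15.8 and 50.7 CPM in the other 6 libraries. The blue genes reach at most 57.1 CPM in Bexarotene 1, 63.8 CPM in Bexarotene 2 and 89.8 CPM in the other 6.

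The 12 H4 genes encode 1 protein through 11 different coding sequences of 309 bases, of which 50 positions vary. After their values were seen, the genes were ordered by how far Bexarotene 1 lay above the median of the other 6 libraries. Every variable position was then searched for a base that separated the leading genes from the rest, with cuts of several sizes tried. Only 1 position matched, at the cut after the leading 6 genes. At position 126, counted from 1 at the first base of the start codon, *H4c1*, *H4c2*, *H4c3*, *H4c8*, *H4c11* and *H4c12* have G. Relative to these, *H4c4*, *H4c6*, *H4c9*, *H4c17* and *H4c18* carry G126A and *H4c14* carries G126T. All are the last base of codon 42, and the protein does not change. The window from position 106 to 146 is printed for the 3 versions, with position 126 and any other difference from *H4c1* in capitals. The other genes with G and with G126A have the same window as the gene printed.
*H4c1* (chr13:23944995-23945035): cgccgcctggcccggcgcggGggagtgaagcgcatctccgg
*H4c4* (chr13:23765690-23765730): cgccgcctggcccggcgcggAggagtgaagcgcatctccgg
*H4c14* (chr3:96170475-96170515): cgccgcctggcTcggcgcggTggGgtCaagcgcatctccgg

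This window with G occurred at 6 places in GRCm39, which were these 6 genes, and with A at 5 places, which were the 5 genes with G126A. The 6 genes had equal bases from position 94 to 290, a run of 197 bases that occurs nowhere else in GRCm39. They exceeded the median of the other 6 libraries by 40.7 to 53.3 CPM in Bexarotene 1 and by 67.8 to 93.2 CPM in Bexarotene 2. The remaining H4 genes differed from it by −3.02 to 11.5 CPM and by 3.65 to 24.4 CPM. The separation is therefore one of absolute CPM. As a ratio it does not hold, since *H4c9*, with the other base, reached 4.26 and 7.93 times that median, above the 2.05 to 3.10 and 3.14 to 4.57 times of the 6 genes. *H4f16*, an H4 gene on chromosome 6 outside the clusters, differs from *H4c1* at 41 coding positions. Of these, 8 lie in the window, G126C among them. *H4f16* had 34.8, 22.4, 41.6 and 24.0 CPM with vehicle and 44.5, 59.1, 23.6 and 44.2 CPM with bexarotene. It exceeded the median of the other 6 libraries by 15.1 CPM in Bexarotene 1 and 29.8 CPM in Bexarotene 2. Both values lie above the ranges of the remaining H4 genes and below those of the 6 genes. Since the 6 genes were grouped after their values were seen, by their Bexarotene 1 values and over several cuts, no test was made. Reads shared among genes with a 197-base run in common cannot be told apart.

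H2B moved the other way. The median level over 16 H2B genes was 12.9, 10.4, 17.6 and 15.7 CPM in Vehicle 1 to 4 and 4.34, 5.28, 10.1 and 18.3 CPM in Bexarotene 1 to 4. The group means were 14.1 ± 3.18 and 9.53 ± 6.41 CPM (SD, n = 4 each), and the groups overlapped. Bexarotene 1 and 2 both lay below the other 6 libraries in 14 of 16 H2B genes, where 17.5% of all genes tested did. Of 16 log2 fold changes, 15 were negative, and 1 gene had an unadjusted p under 0.05.

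That gene was *H2bc1*, a histone of the male germ line, with 2.68, 2.44, 3.77 and 2.98 CPM with vehicle and 0.631, 0.845, 1.60 and 2.78 CPM with bexarotene. Its log2 fold change was −0.81 (SE 0.37, unadjusted p = 0.0488 and adjusted p = 0.976 by edgeR), with a p of 0.0857 by the exact permutation test, and −0.43 without Bexarotene 1 and 2. The gene had only 4 and 2 counts in Bexarotene 1 and 2, where 3 counts are worth 0.473 and 1.27 CPM. It was therefore not in the fit with at least 10 counts in every library. *H2bc3*, whose promoter is printed above, had 12.3, 13.1, 18.9 and 12.6 CPM with vehicle and 3.16, 3.38, 10.1 and 15.6 CPM with bexarotene. Only Bexarotene 4 fell within the vehicle range for both genes. The log2 fold change of *H2bc3* was −0.69 (SE 0.40, unadjusted p = 0.115 by edgeR), and −0.13 without the pair.

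*H2bc13* had 12, 9.15, 14.4 and 15.6 CPM with vehicle and 3.31, 2.53, 7.07 and 17.0 CPM with bexarotene. *H2bc11* had 17.1, 14.9, 21.2 and 17.5 CPM with vehicle and 7.10, 6.34, 12.7 and 20.5 CPM with bexarotene. In *H2bc15* the values were 24.3, 21.8, 30.7 and 31.7 CPM with vehicle and 8.83, 8.02, 22.0 and 38.8 CPM with bexarotene. All 3 genes were lowest in Bexarotene 1 and 2 and, except in *H2bc11*, highest in Bexarotene 4. Their log2 fold changes were −0.63, −0.53 and −0.42 (SE 0.44, 0.31 and 0.41), with unadjusted p-values of 0.179, 0.119 and 0.326 by edgeR. Without the pair these were −0.07, −0.08 and 0.18.

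H2A, the partner of H2B, was mixed. Its median level was 16.1, 15.1, 24.7 and 19.2 CPM in Vehicle 1 to 4 and 17.4, 25.3, 13.7 and 24.0 CPM in Bexarotene 1 to 4. *H2ac19*, whose copy *H2ac18* had nearly the same counts, had 111, 103, 174 and 106 CPM with vehicle and 66.3, 60.8, 95.1 and 155 CPM with bexarotene. Its log2 fold change was −0.38 (SE 0.31, unadjusted p = 0.242 by edgeR) and 0.03 without Bexarotene 1 and 2. *H2ac15* had 37.1, 43.4, 65.8 and 47.6 CPM with vehicle and 19.2, 41.4, 34.4 and 57.0 CPM with bexarotene, and *H2ac23* had 36.2, 40.1, 63.1 and 44.8 CPM and 21.3, 32.1, 32.6 and 57.2 CPM. Both had a log2 fold change of −0.35 (SE 0.30 and 0.29, unadjusted p = 0.274 and 0.252 by edgeR), and −0.07 and −0.02 without the pair. The groups overlapped in these genes as well. Across 17 H2A genes the log2 fold changes ran from −0.38 to 0.70, with 8 above and 9 below 0, and Bexarotene 1 and 2 were both below the other 6 libraries in 5 genes, beside 17.5% of all genes tested, and both above in 0, beside 14.8%. The 5 genes include the copies *H2ac18* and *H2ac19* and the copies *H2ac23* and *H2ac24*, and so stand for 3 measurements.

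Many H2A and H2B genes are arranged as divergent pairs that share the DNA between their starts. In 13 such pairs the starts were 175 to 305 bases apart, and both genes passed the filter in 11. In Vehicle 1 to 4 the median ratio of H2A to H2B counts over these pairs was 1.11, 1.41, 1.57 and 1.32, and in Bexarotene 1 to 4 it was 2.18, 4.00, 1.24 and 1.33. The ratio was higher in Bexarotene 1 and 2 than in the other 6 libraries in 9 of the 11 pairs. For *H2ac14* and *H2bc14*, whose starts are 235 bases apart, it was 11.2 and 9.17 against 0.849 to 1.28, and for *H2ac22* and *H2bc22* it was 13.4 and 10.6 against 1.94 to 2.75. These high ratios divide by few counts. In Bexarotene 1 and 2, *H2bc14* had 9 and 6 counts and *H2bc22* had 8 and 5. The exceptions were the 2 pairs that consist of the copies *H2ac23* and *H2ac24* with *H2bc23* and *H2bc24*, at 1.19 to 1.52 against 1.11 to 1.61. So the counts assigned to the members of a pair with a common upstream region differed in how far these libraries departed from the others. Every H2A gene of the pairs overlapped a gene on the opposite strand, whereas several of the H2B genes did not. *H2ac14*, typed as a pseudogene, also overlapped 2 genes on its own strand. The part of such overlaps in the ratios was not tested. No test was made, since the pairs share libraries and sequences.

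**Figure D4:**
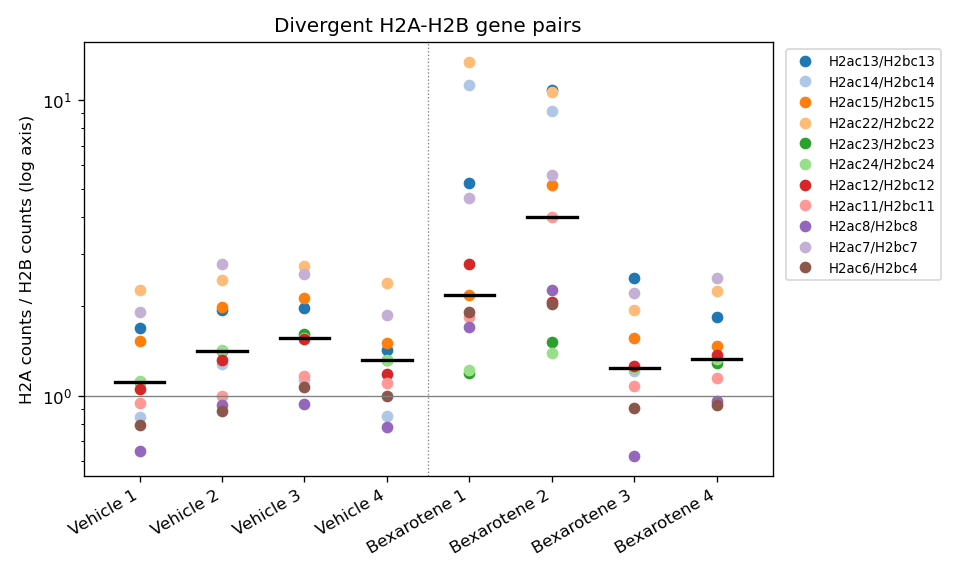
Ratio of H2A to H2B counts (log axis) in 11 divergent gene pairs in each library, with 1 colour per pair and black bars for the median. The median is 2.18 and 4.00 in Bexarotene 1 and Bexarotene 2 and 1.11 to 1.57 in the other 6 libraries.

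The H3 genes, which had the highest median level, showed no such displacement. Their median was 66.4, 55.7, 92.6 and 69.1 CPM with vehicle and 69.7, 71.0, 50.8 and 94.2 CPM with bexarotene. *H3c13* had 77.5, 82.8, 128 and 89.6 CPM with vehicle and 73.5, 117, 72.6 and 114 CPM with bexarotene (log2 fold change −0.01, SE 0.24). *H3c11* had 74.9, 59.6, 94.1 and 78.7 CPM with vehicle and 74.5, 71.8, 48.7 and 107 CPM with bexarotene (−0.02, SE 0.25). *H3c10* had 66.4, 60.8, 97.7 and 78.7 CPM and 74.5, 91.2, 54.0 and 104 CPM (0.09, SE 0.24). In each gene the 2 groups covered much the same range. The unadjusted p-values were 0.971, 0.927 and 0.717 by edgeR, and the 10 H3 genes had log2 fold changes from −0.30 (*H3c15*) to 0.24 (*H3c1* and *H3c3*), none with an unadjusted p under 0.05.

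The linker histones also stayed close together. *H1f5* had 49.5, 31.7, 47.8 and 55.9 CPM with vehicle and 48.0, 55.7, 32.7 and 54.5 CPM with bexarotene. *H1f1* had 40.7, 31.6, 56.0 and 44.7 CPM and 40.2, 51.5, 33.9 and 47.5 CPM, and *H1f4* had 56.2, 45.9, 63.6 and 64.4 CPM and 48.3, 54.5, 49.9 and 68.9 CPM. Their log2 fold changes were 0.04 (SE 0.23), −0.01 (SE 0.21) and −0.05 (SE 0.19), with unadjusted p-values of 0.871, 0.980 and 0.782 by edgeR. The 5 tested H1 genes ranged from −0.13 to 0.04, and in none were Bexarotene 1 and 2 both outside the other 6 libraries.

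**Figure D5:**
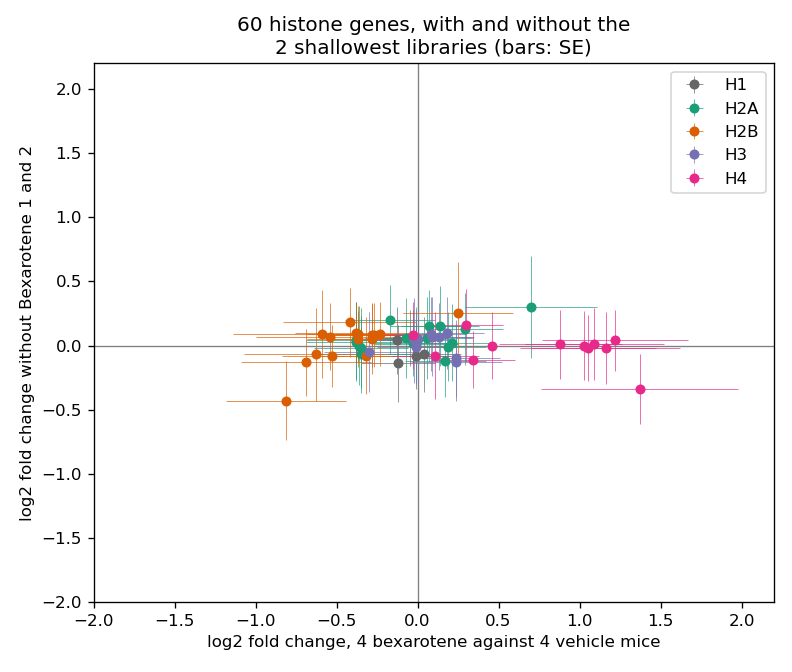
Log2 fold change of each of the 60 tested histone genes in the comparison of all 8 mice (x axis) and without Bexarotene 1 and Bexarotene 2 (y axis), with bars for the SE. The H4 genes reach 1.37 on the x axis, and all genes lie between −0.43 and 0.30 on the y axis. When counts were scaled by library total alone, the H4 median turns from 0.95 to −0.21.

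Mice of the same group also differed among themselves. Of the vehicle mice, Vehicle 3 had the highest and Vehicle 2 the lowest class median in all 5 classes, and Bexarotene 4 exceeded Bexarotene 3 in all 5. The 60 members summed to 1940, 1730, 2730 and 2050 CPM in Vehicle 1 to 4 and to 1960, 2560, 1590 and 2650 CPM in Bexarotene 1 to 4, so the groups overlapped in the total as well.

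Genes that act around histone synthesis were read from the same fit. Of 9 tested replication-independent variants, 1 was lower and 0 higher at an unadjusted p under 0.05, beside 1.3% and 2.38% of all genes tested. It was *H1f0*, the H1 of non-dividing cells, at 16.7 ± 3.65 CPM with vehicle and 10.6 ± 3.91 with bexarotene (log2 fold change −0.60, SE 0.26, unadjusted p = 0.0388 and adjusted p = 0.976 by edgeR), with −0.25 without Bexarotene 1 and 2. *H2ax*, the variant phosphorylated at DNA breaks, averaged 44.0 ± 11.3 and 44.6 ± 10.8 CPM. The H3.3 genes *H3f3b* and *H3f3a* had log2 fold changes of −0.14 (SE 0.20) and −0.53 (SE 0.26, unadjusted p = 0.0680 by edgeR), the latter −0.16 without Bexarotene 1 and 2.

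Of 15 tested genes for the transcription and end processing of histone mRNAs, 0 passed an unadjusted p of 0.05 by edgeR in either direction (median log2 fold change, 0.02). *Sympk*, a scaffold of the cleavage complex, averaged 21.0 ± 1.51 and 25.5 ± 3.10 CPM (log2 fold change 0.27, SE 0.16), and *Srrt*, a partner of the cap-binding complex, 21.1 ± 1.98 and 23.0 ± 3.42 CPM (0.12, SE 0.16). *Lsm11*, a subunit of the U7 particle that recognises histone pre-mRNA, had 1.55, 1.09, 1.04 and 1.07 CPM with vehicle and 3.31, 2.11, 1.39 and 1.37 CPM with bexarotene (0.67, SE 0.35, unadjusted p = 0.0829 by edgeR, and 0.21 without Bexarotene 1 and 2).

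Among 15 histone chaperones, 0 passed that threshold, and the sum of the list was 389 and 472 CPM in Bexarotene 1 and 2 against 226 to 336 in the other 6. Of the 15 log2 fold changes, 9 were negative (median, −0.08), and the high sums rested on 1 gene. *Npm1*, an abundant nucleolar chaperone, had 125, 87.3, 114 and 136 CPM with vehicle and 228, 326, 86.6 and 132 CPM with bexarotene (log2 fold change 0.73, SE 0.36, unadjusted p = 0.0685 by edgeR), thus with the same libraries high as in the H4 genes. *Nap1l1*, a chaperone of H2A and H2B, had 41.5, 27.2, 42.3 and 46.3 CPM with vehicle and 26.8, 15.2, 32.8 and 39.4 CPM with bexarotene (−0.43, SE 0.27). Without Bexarotene 1 and 2 these changes were −0.07 and −0.11.

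The S phase genes, whose activity accompanies histone synthesis, gave 0 of 23 at an unadjusted p under 0.05 in either direction by edgeR, with a median log2 fold change of −0.03. Their sum lay between 243 and 334 CPM with vehicle and between 257 and 343 with bexarotene, Bexarotene 1 and 2 included (298 and 266). The helicase subunits *Mcm2* and *Mcm6* had log2 fold changes of −0.04 (SE 0.22) and 0.18 (SE 0.17), the sliding clamp gene *Pcna* −0.34 (SE 0.21) and the thymidylate synthase gene *Tyms* −0.33 (SE 0.22). Of 16 genes of G2 and mitosis, 0 passed as well (median, −0.09). *Mki67*, a marker of cycling cells, had 49.2 and 46.9 CPM in Bexarotene 1 and 2 and 91.6 to 121 CPM in the other 6 libraries, whereas *Top2a*, the replication and mitosis topoisomerase, had 44.5 and 46.5 CPM against 36.9 to 53.3. *Ccnb2* and *Aurkb*, which act in mitosis, had log2 fold changes of −0.41 (SE 0.22) and 0.36 (SE 0.21).

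RNAs that also lack a poly(A) tail were set beside the histones. Of the 10 listed, 5 were in the table and 2 were tested. *Rn7s6*, a 7S RNA gene, had 199, 195, 309 and 346 CPM with vehicle and 907, 1230, 134 and 235 CPM with bexarotene (log2 fold change 1.26, SE 0.59, unadjusted p = 0.0570 by edgeR, and −0.49 without Bexarotene 1 and 2). *Rmrp*, the RNA of RNase MRP, had 99.7, 131, 185 and 178 CPM with vehicle and 198, 188, 136 and 118 CPM with bexarotene (0.10, SE 0.26, and −0.22 without Bexarotene 1 and 2). For both RNAs, Bexarotene 1 and 2 lay above all other libraries, as in 14.8% of all genes tested. For *Rmrp* the margin was small (198 and 188 against at most 185 CPM). Of 12 abundant polyadenylated mRNAs, 0 passed an unadjusted p of 0.05 by edgeR. Bexarotene 1 and 2 lay above the other 6 libraries in 1 of these mRNAs, beside 14.8% of all genes tested. They lay below in 5, beside 17.5%. *Actb* averaged 686 ± 82.2 and 695 ± 70.5 CPM and *Eef1a1* 767 ± 41.6 and 691 ± 103 CPM. *Gapdh* had 38.5 and 25.8 CPM in Bexarotene 1 and 2 against 70.3 to 104 CPM in the other 6, and *Tpt1* 36.9 and 38.9 against 44.8 to 53.5 CPM.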

How the data were processed

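RNA-seq of tumor-bearing back skin was done on 4 vehicle and 4 bexarotene mice, 1 library per mouse, after ribosomal RNA depletion with a directional kit. Per the labels and methods, the authors used Trimmomatic 0.30, FastQC 0.11.9, HISAT2 (2.0.1 in the submitters' processing notes), GRCm39, HTSeq 0.6.1 and DESeq2, and deposited raw counts per gene with gene lengths. The methods describe the reads as uniquely aligned. The treatment in counting of reads that fit several genes was not given in the sources used here. Rows without a gene name numbered 3131.

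Counts were filtered with filterByExpr (minimum 10, total 15), scaled by TMM and tested with edgeR 4.0.16 in R 4.3.3 (quasi-likelihood, group only, Benjamini-Hochberg over 11616 genes, threshold 0.05). The code was tested on simulated data. Single genes were also tested by two-sided exact permutation. TPM used deposited lengths. Sequences came from GRCm39 with GENCODE vM39 and from RefSeq promoters. Alternatives were RLE, upper-quartile and total-count scaling, no filter, at least 10 counts per library, limma 3.58.1 (voom), DESeq2 1.42.0, a replicate block, each library left out, Bexarotene 1 and 2 left out, and protein-coding rows only. Counting each pair of copies once was chosen after seeing the data. Total counts were 8518428 to 24020342.

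The members and lists were chosen with earlier results of these data known. Genes named were the 3 highest by mean TPM in each class, members with an unadjusted p under 0.05, and the 3 largest and 3 smallest log2 fold changes. In other lists they were the 2 most abundant and the 2 with the smallest p. From the cell type lists, only some of these were named. *H4f16*, single extremes and genes given only by fold change or ratio were named after their values were seen. Mice are separate animals, and p-values measure the spread between them.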

Additional observations from a re-analysis of the deposited data

Results flagged for a closer look

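In 44 groups of 4 mice (22 named members, each with vehicle and with bexarotene), 2 held a value far from the other 3 by Dixon's ratio at its 95% critical value for groups of 4. Chance gives about 1 in 20 groups. Both were in Vehicle 3. *H2ac19* had 174 CPM there against 103 to 111 in the other vehicle mice (ratio, 0.884). *H2bc3* had 18.9 CPM against 12.3 to 13.1 (ratio, 0.876). Vehicle 3 was also the highest vehicle mouse in the medians of H1, H2A, H2B, H3 and H4.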

How the results depend on the processing

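No gene was called at an adjusted p under 0.05 under any of the 18 other fits, so no member changed its side of that threshold. The number of histone genes at an unadjusted p under 0.05 was 8 as reported. It was 0 with total-count scaling, with limma-voom and without both Bexarotene 1 and 2. It was 5 with at least 10 counts in every library, and 0 to 21 when 1 library was left out. Over all genes, 428 as reported, that number was 80 with total-count scaling, 399 with limma-voom and 200 without both Bexarotene 1 and 2. It was 211 with at least 10 counts in every library and 203 to 914 when 1 library was left out. The median of all members, −0.01 as reported, became −0.65 with total-count scaling, where the median of all genes was −0.66, and −0.13 to 0.15 when 1 library was left out.

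The H4 median of 0.95 became −0.21 with total-count scaling (0.45 relative to all genes), 0.41 with limma-voom, 0.00 without both Bexarotene 1 and 2, and 0.53 to 1.26 when 1 library was left out. The H2B median of −0.38 became −0.85 with total-count scaling (−0.19 relative to all genes), 0.07 without both Bexarotene 1 and 2, and −0.77 to −0.16 when 1 library was left out. The cause was not tested. The ratio of summed H4 to H2B levels averaged 1.87 (TPM) and 1.46 (CPM) with vehicle and 6.89 and 4.57 with bexarotene. In Bexarotene 1 to 4 it was 10.7, 13.2, 1.81 and 1.83 (TPM) and 7.22, 8.23, 1.4 and 1.43 (CPM), so the higher means rested on Bexarotene 1 and 2.

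Of 415 values of 22 members under other settings, 370 kept their direction and 45, in 16 members, changed sign. With total-count scaling these were *H1f5* −0.79, *H3c10* −0.60, *H4c1* −0.10, *H4c11* −0.02, *H4c12* −0.30, *H4c18* −0.50, *H4c2* −0.09, *H4c3* −0.11 and *H4c8* −0.13. Without both Bexarotene 1 and 2 they were *H1f4* 0.06, *H1f5* −0.07, *H2ac19* 0.03, *H2bc15* 0.18, *H3c11* 0.04, *H4c2* −0.02, *H4c3* 0.00, *H4c8* −0.02 and *H4c9* −0.34. The rest lay near 0: *H1f1* 0.00 (RLE and DESeq2), 0.01 (block and permutation) and 0.02 (protein-coding rows), *H1f5* −0.02 (no filter) and −0.05 (at least 10 counts in every library), *H3c13* 0.00 (RLE), 0.01 (protein-coding rows) and 0.03 (limma-voom). With 1 library left out the ranges were −0.13 to 0.14 (*H1f1*), −0.16 to 0.02 (*H1f4*), −0.10 to 0.21 (*H1f5*), −0.04 to 0.27 (*H3c10*), −0.23 to 0.16 (*H3c11*) and −0.13 to 0.17 (*H3c13*).

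Same-numbered mice did not deviate together (correlations from −0.0899 to 0.00149), so the numbers give no pairing. With the replicate block, 6 histone genes had an unadjusted p under 0.05, of 424 genes in all. With that block 0 genes were called, and the medians were 0.75 in H4 and −0.59 in H2B. Depth limits Bexarotene 2 most, where 3 counts are worth 1.27 CPM.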
